A study of Mus musculus with 6 samples.

Results

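Expression of 10 genes of the extracellular matrix was followed, the small proteoglycans Dcn, Bgn, Lum and Fmod, the large proteoglycan Vcan and the matricellular genes Sparc, Thbs1, Thbs2, Postn and Tnc, in damaged hepatocytes (dHeps) kept in culture with or without chemical compounds. They were taken by gene symbol from a deposited table of 52323 genes. The list of symbols uses no measured value, but it was chosen with earlier results of these data known. All 10 were among the 19135 genes with enough counts to be tested. RNA was sequenced on day 16 from cells isolated by collagenase and pronase perfusion from the livers of AAV-TBG-Cre:Rosa-LSL-tdTomato mice injured with CCl4, in which a virus delivers Cre under the liver-specific TBG promoter and so marks hepatocytes with tdTomato. The cells of all 3 groups were seeded on rat tail collagen and held in serum-free Hepatocyte Maintenance Medium, with the solvent DMSO, with 3C (50 µM CID755673, 2 µM GSK429286A and 5 µM ETC-1002) or with 5C (the same compounds at the same doses plus 5 µM salidroside and 2 µM forskolin). CID755673 inhibits protein kinase D, GSK429286A is a ROCK inhibitor, ETC-1002 is bempedoic acid, an inhibitor of ATP citrate lyase that also activates AMPK, salidroside is a plant glycoside, and forskolin activates adenylate cyclase. Each group had 2 libraries. By the study's methods the mice were young adults when given the virus and were injured with repeated CCl4 injections after that. The labels do not say whether the libraries of a group came from different animals, so p-values measure the spread between these samples, which may be technical.

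Small leucine-rich proteoglycans are secreted proteins with a horseshoe-shaped core, most of them carrying sulfated sugar chains, that sit on collagen fibrils and set their width and spacing. Decorin and biglycan also bind TGF-β, and versican is a large chondroitin sulfate proteoglycan that binds hyaluronan and fills provisional matrix. Matricellular proteins such as SPARC, thrombospondins, periostin and tenascin-C are also secreted, but they tune how cells hold on to the matrix and to its growth factors more than they bear load. In the injured liver most of these genes are known as products of activated stellate cells and portal fibroblasts.

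The 6 libraries were of like depth, with 65916573 to 69245895 estimated counts, a ratio of 1.05 between the deepest and the shallowest. Levels of a gene are given as CPM, its counts scaled to the library's total. The libraries were labelled as hepatocytes, and all 8 hepatocyte markers examined (Alb, Ttr, Apoa1, Cps1, Fah, Tat, Hnf4a and Asgr1) were detected, with a summed level of 1482 to 1715 CPM in DMSO, 9127 to 9548 CPM in 3C and 8764 to 13012 CPM in 5C. Markers of other cell types were also present in every library. In bulk RNA, fewer cells of a type and less RNA per cell cannot be told apart.

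Compared by length-scaled level (FPKM), the 10 genes lay from among the most abundant of the table to means near 1 FPKM. Sparc, Bgn and Dcn were abundant in every group. In DMSO, Sparc stood at 938 ± 35.7 FPKM (SD, n = 2), the 35th highest of 52327 genes, Bgn at 519 ± 60.4 FPKM and Dcn at 334 ± 53.2 FPKM. The next genes in that order were Thbs1 at 39.1 ± 4.72 FPKM, Postn at 34.6 ± 0.782 FPKM and Lum at 34.2 ± 4.71 FPKM, and the last 2 of these overlapped between libraries. Tnc (6.78 ± 1.36 FPKM) and Thbs2 (5.85 ± 0.653 FPKM) overlapped too, and Vcan (3.03 ± 0.314 FPKM) and Fmod (1.89 ± 0.634 FPKM) were lowest.

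The order changed with the compounds. In 3C, Bgn (733 ± 26.02 FPKM) lay above Sparc (699.9 ± 0.0698 FPKM), Lum (63.4 ± 2.14 FPKM) lay above Thbs1 (56.4 ± 3.68 FPKM), and Tnc was last at 1.65 ± 0.258 FPKM. No neighbours in the order overlapped in 3C. In 5C, Sparc reached 1425 ± 37.8 FPKM, the 13th highest of all genes, followed by Bgn at 1065 ± 68.7 FPKM and Dcn at 794 ± 58.4 FPKM, while Fmod had moved up to 12.6 ± 0.0570 FPKM and Vcan was last at 1.02 ± 0.238 FPKM. Tnc (4.01 ± 1.08 FPKM) and Thbs2 (4.004 ± 1.09 FPKM) overlapped in 5C as they did in DMSO. The 10 genes together took 0.465% and 0.5003% of all counts in the DMSO libraries, 0.518% and 0.564% in 3C and 0.843% and 0.898% in 5C, and Dcn, Bgn and Sparc made up 86.4% to 89.7% of that share.

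**Figure D1:**
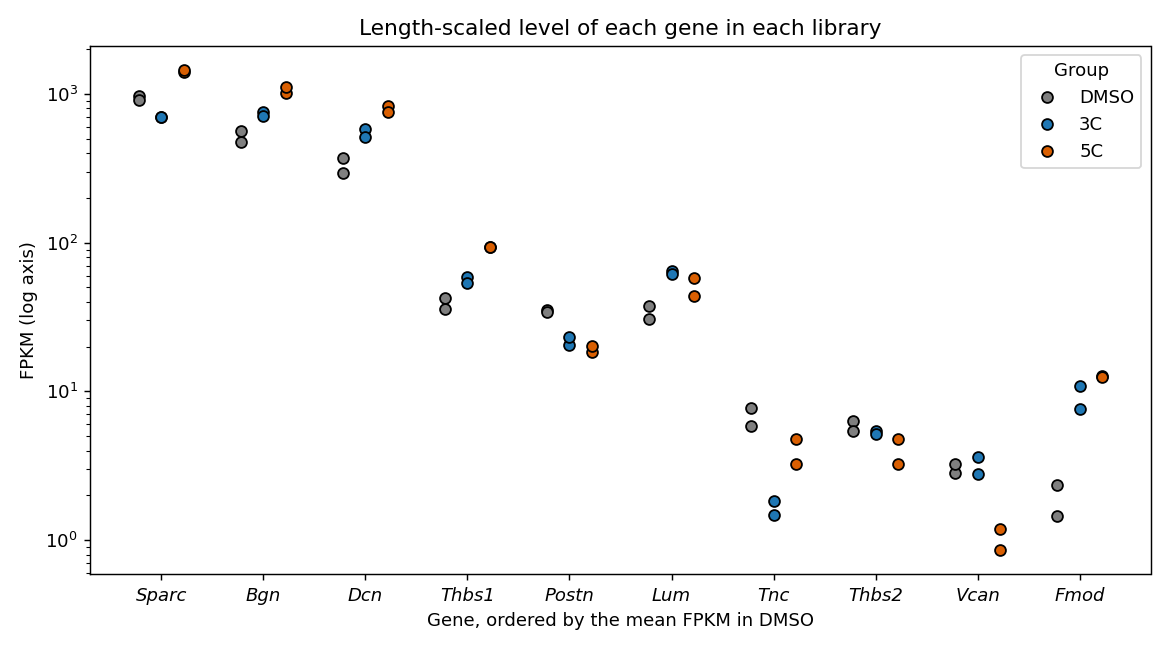
FPKM of each of the 10 genes (log axis) in each of the 6 libraries, 1 point per library, coloured by group and ordered from left to right by the mean in DMSO. Sparc, Bgn and Dcn lie above 290 FPKM in every library, whereas Fmod and Vcan change places between DMSO and 5C.

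Promoter windows from RefSeq (GRCm38.p6), 250 bases before to 50 after a start, were held for 7 of the 10 genes, and the other 3 were Dcn, Lum and Thbs1. Each window matched GRCm39 at 1 place, and its GRCm39 position is given. Those of Sparc, Tnc and Vcan are shown because these genes were the ones that differed by more than 2-fold between 5C and 3C. All 3 genes lie on the minus strand, and the letters run 5′ to 3′ along the gene. The capitals mark the SMAD box CAGAC, on either strand and so also as GTCTG, and the TATA box TATAAA. The windows lie at chr11:55310857-55311156 (Sparc), chr4:63965124-63965423 (Tnc) and chr13:89890582-89890881 (Vcan). RefSeq has 2 Tnc starts, and the window printed is the one further downstream along the gene.
Sparc: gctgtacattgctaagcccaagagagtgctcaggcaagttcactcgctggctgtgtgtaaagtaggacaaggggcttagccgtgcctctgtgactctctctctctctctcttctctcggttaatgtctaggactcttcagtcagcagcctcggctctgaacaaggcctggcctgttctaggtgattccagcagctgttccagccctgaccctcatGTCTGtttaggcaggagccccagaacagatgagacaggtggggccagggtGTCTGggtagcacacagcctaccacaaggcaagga
Tnc: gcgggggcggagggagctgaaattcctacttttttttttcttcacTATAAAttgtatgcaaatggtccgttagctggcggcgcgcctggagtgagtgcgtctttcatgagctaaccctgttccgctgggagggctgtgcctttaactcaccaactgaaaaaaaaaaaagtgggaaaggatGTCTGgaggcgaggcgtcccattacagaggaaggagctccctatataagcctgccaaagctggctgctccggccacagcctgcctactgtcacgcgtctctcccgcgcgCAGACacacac
Vcan: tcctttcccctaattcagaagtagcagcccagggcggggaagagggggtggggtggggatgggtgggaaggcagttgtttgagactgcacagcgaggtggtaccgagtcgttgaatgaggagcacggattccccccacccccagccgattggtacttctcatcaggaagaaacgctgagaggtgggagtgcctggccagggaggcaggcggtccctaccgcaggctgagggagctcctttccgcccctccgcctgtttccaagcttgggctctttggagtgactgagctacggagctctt

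The SMAD box letters occurred 2 times in the Sparc window and 2 times in that of Tnc but were not in that of Vcan, and 49.6% of the 32851 promoter windows of all genes hold them on either strand. Only the Tnc window of the 3 had the TATA box letters, which 13.6% of all windows hold. The short CREB site (TGACG, in 20.8% of all windows), the full CREB site (TGACGTCA, in 1.79%, which contains the short one), the AP-1 site (TGANTCA, in 7.81%) and the TEAD site (GGAATG, in 14.7%) were searched on both strands and were in none of the windows of the 7 genes. A match or its absence describes these letters only.

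The first comparison asks how the full cocktail shifted these genes against the solvent. In 5C, the small proteoglycans Dcn, Bgn and Fmod and the thrombospondin Thbs1 were more than 2-fold higher than in DMSO, and Vcan was more than 2-fold lower. A gene is called here where its Benjamini-Hochberg adjusted p from the quasi-likelihood F test of edgeR, fitted to all 19135 genes, was under 0.05 and its log2 fold change beyond 1 in size. By that rule 5 of the 10 genes were called, 4 higher and 1 lower, where 11.7% of all genes tested were called (7.30% higher and 4.42% lower). By the adjusted p alone 6 rose and 2 fell, where 28.7% of all genes passed. The DMSO and 5C libraries did not overlap for any of the 10, nor for 63.1% of all genes. The median log2 fold change of the 10 was 0.62, beside 0.004 over all genes tested.

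With 3C, which lacks salidroside and forskolin, 2 of the 10 genes were called against DMSO, Fmod higher and Tnc lower, where 9.45% of all genes were called (5.83% higher and 3.62% lower). By the adjusted p alone 5 rose and 3 fell, where 24.5% of all genes passed. The libraries did not overlap for 8 of the 10, all but Vcan and Thbs2, nor for 61.3% of all genes. The median log2 fold change was 0.19, beside 0.009 over all genes. The 2 DMSO libraries served as control for both cocktails.

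Between the cocktails, Sparc and Tnc were called higher and Vcan lower in 5C than in 3C, where 3.01% of all genes were called (2.16% higher and 0.852% lower). By the adjusted p alone 5 were higher and 1 lower in 5C, where 12.7% of all genes passed. The 5C and 3C libraries did not overlap for any of the 10, nor for 58.0% of all genes. The median log2 fold change was 0.52, beside -0.01 over all genes. The cocktails differ by salidroside and forskolin together, so the part of each cannot be told apart.

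**Figure D2:**
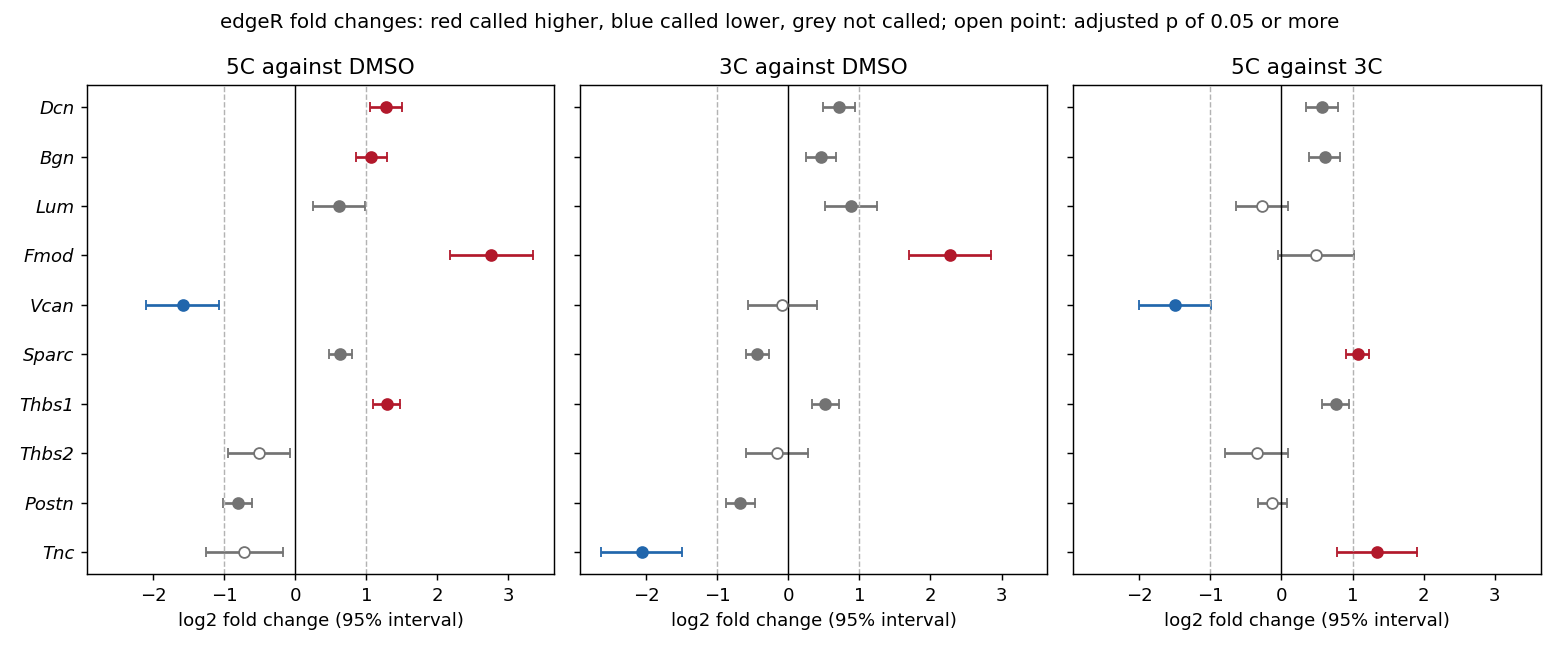
Log2 fold change of each gene (points) with its 95% interval (bars) from edgeR in the 3 comparisons, where dashed lines mark a fold change of 2 in either direction. Red and blue mark genes called higher and lower, grey those not called, and open points an adjusted p of 0.05 or more. Sparc is the one gene with filled points on opposite sides of 0 for 5C and 3C against DMSO.

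Dcn encodes decorin, a proteoglycan with 1 chain that wraps collagen fibrils and binds TGF-β (ENSMUSG00000019929, chr10:97315275-97358155 of GRCm39, plus strand). It was at 702 and 587 CPM in DMSO, 1157 and 1006 CPM in 3C and 1605 and 1489 CPM in 5C. The 3 groups were stepped in that order without overlap. Dcn was 2.43-fold higher in 5C than in DMSO (log2 1.28 ± 0.10 SE, adjusted p = 1.73e-05) and 1.64-fold higher in 3C (log2 0.72 ± 0.10, adjusted p = 0.000705). It was also higher in 5C than in 3C, by a log2 of 0.57 (adjusted p = 0.00611), a difference that missed the threshold without 3C replicate 2 (0.47, adjusted p = 0.0722).

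Bgn encodes biglycan, the close relative of decorin, which also acts as a danger signal through toll-like receptors when released (ENSMUSG00000031375, chrX:72527208-72539541, plus strand). Its level was 1448 and 1289 CPM in DMSO, 2037 and 1809 CPM in 3C and 2662 and 3005 CPM in 5C. As with Dcn, every 5C library lay above every 3C library and every 3C library above DMSO. The log2 fold change was 1.07 ± 0.10 in 5C (2.10-fold, adjusted p = 4.56e-05) and 0.46 ± 0.10 in 3C (1.38-fold, adjusted p = 0.00733) against DMSO, and 0.61 ± 0.10 between 5C and 3C (adjusted p = 0.00393). Without 5C replicate 2 the first of these was 0.96 (adjusted p = 0.000544), under the limit for a call. The difference of 3C from DMSO gave an adjusted p of 0.0864 without 3C replicate 1, and that of 5C from 3C gave 0.0518 without 3C replicate 2.

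Lum encodes lumican, a keratan sulfate proteoglycan of collagen fibrils (ENSMUSG00000036446, chr10:97400990-97408577, plus strand). It lies on chromosome 10 beside Dcn but did not share its order. Lum was at 98.7 and 85.3 CPM in DMSO, 179.6 and 168 CPM in 3C and 117 and 159.7 CPM in 5C, so the 3C libraries were the highest. Lum rose in 3C by a log2 of 0.89 ± 0.15 (1.85-fold, adjusted p = 0.00591) and in 5C by 0.61 ± 0.15 (1.53-fold, adjusted p = 0.0250). The 5C result had an adjusted p of 0.0760 without DMSO replicate 1, 0.159 without DMSO replicate 2 and 0.0586 with the replicate number as a block, and its log2 value fell to 0.35 without 5C replicate 2. The 3C result had an adjusted p of 0.0597 without DMSO replicate 2. Between 5C and 3C the log2 difference was -0.28 with a 95% interval of -0.64 to 0.09 (adjusted p = 0.339), and it was -0.54 (adjusted p = 0.0216) without 5C replicate 2.

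Fmod encodes fibromodulin, which guides early collagen fibril assembly and shares its class with lumican (ENSMUSG00000041559, chr1:133964992-133976015, plus strand). The libraries held 7.86 and 5.10 CPM in DMSO, 38.0 and 26.2 CPM in 3C and 42.6 and 44.1 CPM in 5C. Both cocktails lay far above DMSO. The fold was 6.78 in 5C (log2 2.76 ± 0.25, adjusted p = 0.000201) and 4.85 in 3C (log2 2.28 ± 0.24, adjusted p = 0.000595), the largest rise of the 10 genes in each case. The difference between 5C and 3C, 0.48 with a 95% interval of -0.06 to 1.02, did not pass the test (adjusted p = 0.254).

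The 4 small proteoglycans thus all rose against DMSO with both cocktails, with a median log2 fold change of 1.18 in 5C and 0.80 in 3C. In FPKM terms they ended at different heights, since Fmod was at 12.6 FPKM and Bgn at 1065 FPKM in 5C.

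Vcan encodes versican (ENSMUSG00000021614, chr13:89803431-89890814, minus strand). It stood at 30.7 and 34.3 CPM in DMSO, 28.5 and 34.1 CPM in 3C and 8.30 and 13.0 CPM in 5C. The DMSO and 3C libraries overlapped, and both 5C libraries were far below them. Vcan fell in 5C by 1.59 ± 0.22 on the log2 scale (0.333 of the DMSO level, adjusted p = 0.00121) and was lower than in 3C by a log2 difference of -1.50 ± 0.22 (adjusted p = 0.00458). For 3C against DMSO the value was -0.08 with a 95% interval of -0.57 to 0.41 (adjusted p = 0.835), and its sign turned in FPKM and without single libraries. Vcan moved against the small proteoglycans in 5C.

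**Figure D3:**
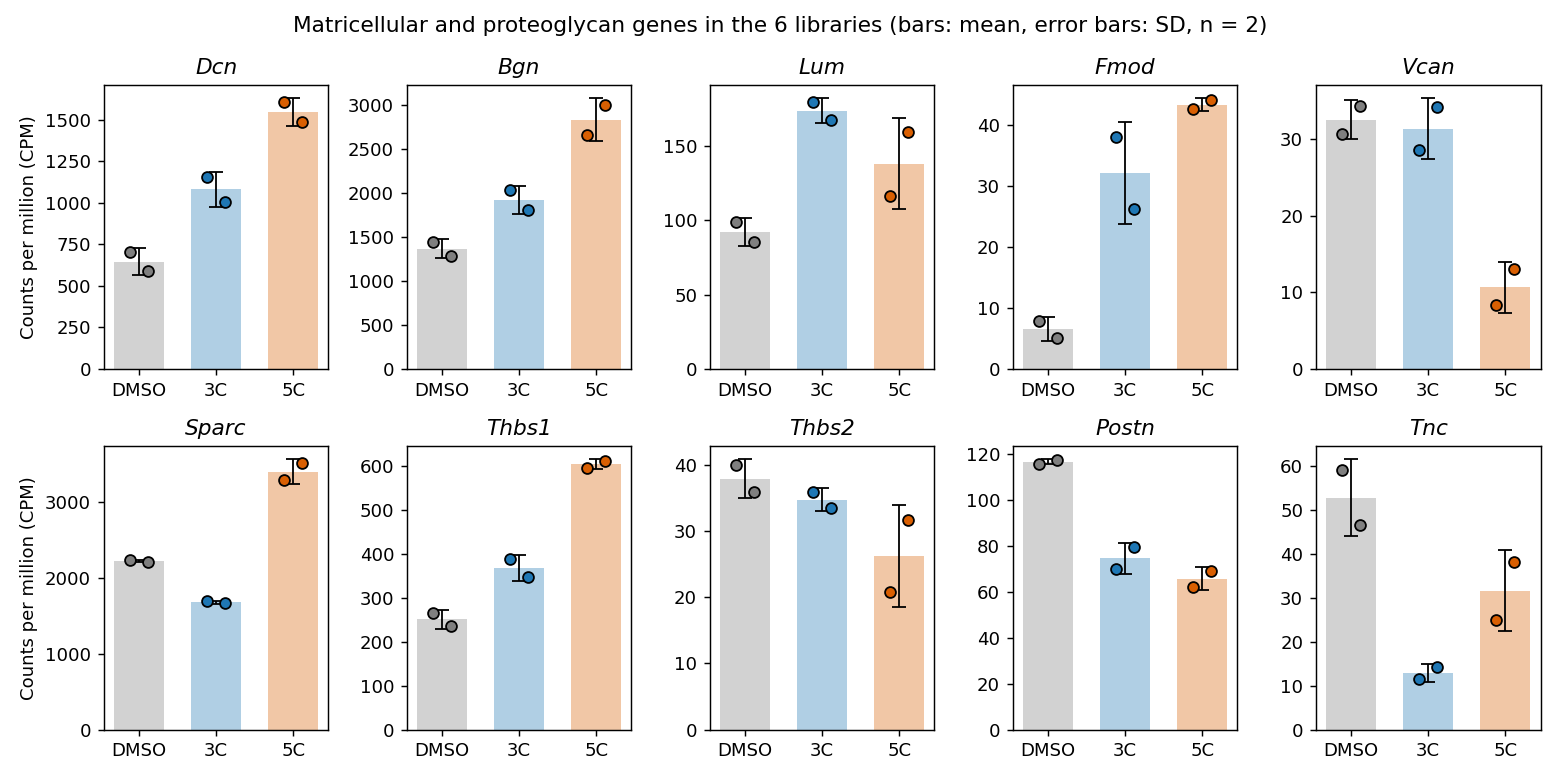
CPM of each of the 10 genes by group. Points are libraries, bars are means and error bars are SD over 2 libraries. Dcn, Bgn and Thbs1 step up from DMSO through 3C to 5C, Sparc is lowest in 3C and highest in 5C, and Tnc is lowest in 3C.

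Sparc encodes SPARC (osteonectin), a collagen-binding protein needed for orderly collagen deposition (ENSMUSG00000018593, chr11:55285317-55314067, minus strand). It was at 2234 and 2218 CPM in DMSO, 1695 and 1666 CPM in 3C and 3291 and 3522 CPM in 5C. The cocktails lay on opposite sides of DMSO, with no overlap among the 3 groups. Sparc fell in 3C by 0.44 ± 0.07 on the log2 scale (adjusted p = 0.00187) and rose in 5C by 0.63 ± 0.07 (adjusted p = 0.000173). The difference of 5C from 3C was 1.07 ± 0.07 (2.10-fold, adjusted p = 0.000138), and without 5C replicate 2 it came to just under the limit for a call (adjusted p = 0.00219). This opposition, with all 3 differences past the test, was seen in 0.486% of the genes tested. The printed Sparc window lies within the annotated span of the gene, downstream of its outermost start, and so does the Tnc window in its own gene.

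Thbs1 encodes thrombospondin-1, a trimer known to activate latent TGF-β and to restrain vessel growth (ENSMUSG00000040152, chr2:117941974-117957616, plus strand). The levels were 267 and 236 CPM in DMSO, 389 and 348 CPM in 3C and 597 and 613 CPM in 5C, the same stepwise order as for Dcn and Bgn. Thbs1 was 2.44-fold higher in 5C (log2 1.29 ± 0.08, adjusted p = 6.69e-06) and 1.44-fold higher in 3C (log2 0.52 ± 0.08, adjusted p = 0.00170) than in DMSO. It was 1.70-fold higher in 5C than in 3C (log2 0.77 ± 0.08, adjusted p = 0.000806). These differences passed the adjusted p threshold in every alternative run.

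Thbs2 encodes thrombospondin-2, a relative of thrombospondin-1 that lacks the TGF-β activating motif (ENSMUSG00000023885, chr17:14885761-14914528, minus strand). It was at 39.99 and 35.8 CPM in DMSO, 35.9 and 33.5 CPM in 3C and 20.8 and 31.7 CPM in 5C. DMSO and 3C overlapped, and the 5C libraries lay below both but far apart. None of the 3 differences passed, with log2 values of -0.51 (95% interval -0.95 to -0.07, adjusted p = 0.0863) for 5C against DMSO, -0.16 (-0.60 to 0.28, adjusted p = 0.626) for 3C against DMSO and -0.35 (-0.79 to 0.09, adjusted p = 0.318) for 5C against 3C. The 5C values rest on which library is used. Without 5C replicate 2 they were -0.86 (adjusted p = 0.00191) against DMSO and -0.71 (adjusted p = 0.0166) against 3C, and without 5C replicate 1 they were -0.23 and -0.07.

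Postn encodes periostin, an integrin-binding protein of remodelling matrix (ENSMUSG00000027750, chr3:54268501-54298471, plus strand). It was at 116 and 117 CPM in DMSO, 69.8 and 79.4 CPM in 3C and 62.2 and 69.2 CPM in 5C, so DMSO stood apart and the cocktails lay close together. Postn fell by 0.81 ± 0.09 in 5C (adjusted p = 0.000152) and by 0.68 ± 0.09 in 3C (adjusted p = 0.000540) on the log2 scale, or to 0.571 and 0.625 of the DMSO level, short of the limit for a call. The 5C to 3C difference was -0.13 with a 95% interval of -0.33 to 0.07 (adjusted p = 0.438).

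Tnc encodes tenascin-C, a hexamer of early wound matrix that loosens cell adhesion (ENSMUSG00000028364, chr4:63878014-63965443, minus strand). The libraries held 59.0 and 46.6 CPM in DMSO, 11.5 and 14.3 CPM in 3C and 25.1 and 38.2 CPM in 5C. The 3 groups did not overlap, with 3C lowest and 5C between. Tnc fell in 3C by 2.06 ± 0.24 on the log2 scale (to 0.239 of DMSO, adjusted p = 0.000986), the largest fall of the 10 genes. In 5C the value was -0.72 ± 0.23 (95% interval -1.26 to -0.17, adjusted p = 0.0584), and it was -1.07 (adjusted p = 0.00502) without 5C replicate 2 and -0.43 without 5C replicate 1. The 5C difference was of like size and passed the adjusted p threshold, short of a call, with DESeq2 (adjusted p = 0.0045), with limma on log2(FPKM + 1) or log2(FPKM + 0.1) (0.0274 and 0.0351) and with library totals in place of TMM (0.0453). Tnc was 2.54-fold higher in 5C than in 3C (log2 1.35 ± 0.23, adjusted p = 0.0128). That call was lost without 3C replicate 1 (adjusted p = 0.104) or 3C replicate 2 (adjusted p = 0.0551), and without 5C replicate 2 the value was 0.99 (adjusted p = 0.0185). The antisense gene 8030451A03Rik shares exon bases with Tnc, and its highest count was 9, at most 1.18% of that of Tnc in the same library. How reads of the shared bases were assigned is not given, so this count does not bound their effect on Tnc.

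The members' profiles over the 6 libraries were set beside those of other genes that averaged 10 CPM or more, which number 10246 with the members counted. The measure was the distance between log2 CPM centred on each gene's own mean, where 0 is the same shape. For Thbs1 the nearest genes were Agtr1a (0.0979), an angiotensin II receptor, Timp3 (0.112), a matrix-bound inhibitor of metalloproteinases, and Pxdn (0.116), which crosslinks collagen IV. Those nearest Dcn were Cnksr3 (0.0923), Adamts7 (0.117) and Fhdc1 (0.144), and those nearest Bgn were Rbms3 (0.157), Pde3a (0.160) and Nuak1 (0.169). Sparc lay nearest to Gpx8 (0.150), Rcn3 (0.156) and Fkbp10 (0.165), which encode proteins of the endoplasmic reticulum, the last a collagen prolyl isomerase. Timp3 was at 470 CPM in DMSO, 664 CPM in 3C and 1135 CPM in 5C on average, and Fkbp10 at 144 CPM, 99.6 CPM and 204 CPM.

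The nearest profiles of Fmod, Vcan and Tnc were more distant, by a measure that also grows with the size of a gene's changes. In Pearson correlation over the 6 libraries, Fmod and Lratd1 (0.995) matched no less closely than Bgn and Rbms3 (0.990). The nearest genes of Vcan and Tnc reached 0.987 and 0.970. Fmod was nearest to Lratd1 (0.310), Chdh (0.494) and Cyp2c70 (0.508), the last of these encoding a bile acid hydroxylase of mouse hepatocytes. Vcan was nearest to the collagen-binding integrin gene Itga2 (0.417), the cadherin gene Cdh6 (0.482) and Syt14 (0.566), and Tnc to Pkhd1l1 (0.526), the heat shock gene Hspa1a (0.529) and Bcat1 (0.544). Itga2 averaged 36.5 CPM in DMSO, 40.6 CPM in 3C and 15.1 CPM in 5C.

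Among 13 other small leucine-rich proteoglycans, 11 were tested. Over all genes tested, to be set beside this and the later lists, 11.7% were called in 5C and 9.45% in 3C against DMSO. Between the cocktails it was 3.01%. The median log2 fold changes over all genes were 0.004, 0.009 and -0.01 in the same order. In 5C against DMSO 2 were called higher (Podn and Optc) and 2 lower (Aspn and Nyx), and in 3C 1 was higher (Podn) and 2 lower (Aspn and Nyx). Podn, which encodes podocan, was at 2.59 ± 0.0826 CPM in DMSO and rose to 9.89 ± 1.67 CPM in 3C (log2 1.90, adjusted p = 6.77e-05) and to 21.2 ± 2.41 CPM in 5C (log2 3.05, adjusted p = 3.82e-06), and it was the 1 gene of this list called between 5C and 3C (log2 1.15, adjusted p = 0.00272, and under the limit at 0.99 without 3C replicate 2). Aspn, which encodes asporin, a TGF-β binding relative of decorin, fell from 1.90 ± 0.0358 CPM to 0.195 ± 0.0917 CPM in 5C (log2 -3.25, adjusted p = 0.00161). Its 5C libraries held 9 and 18 counts, around the floor of 12, so the size of that fall is uncertain. In 3C Aspn was at 0.433 ± 0.114 CPM (log2 -2.16, adjusted p = 0.0117), a call lost without 3C replicate 2 (log2 -1.92). Optc was at least 3.53-fold higher in 5C than in DMSO, where both libraries were under the floor of 12 counts, and Nyx had a log2 value of -2.37 in 3C (adjusted p = 0.00572) and -1.45 in 5C, but the 5C calls of Optc and Nyx (adjusted p = 0.0458 and 0.0403) were lost whichever single library was left out. Over the 11 the median log2 fold change was 0.36 in 5C and 0.28 in 3C against DMSO.

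Of 27 other matricellular and aggregating proteoglycan genes, 19 were tested, of which 5 were called higher and 3 lower in 5C, 4 higher and 1 lower in 3C, and 1 higher in 5C than in 3C. Smoc1, a SPARC relative with calcium-binding modules, rose from 25.0 ± 0.0651 CPM to 113 ± 2.06 CPM in 3C (log2 2.14, adjusted p = 1.20e-06) and 79.8 ± 0.666 CPM in 5C. Thbs4 had no count in either DMSO library and was at least 16.9-fold higher in 3C and at least 13.1-fold higher in 5C, with the floor of 12 counts per library in place of 0. Tgfbi, an integrin ligand induced by TGF-β, fell from 88.5 ± 5.07 CPM to 26.3 ± 1.10 CPM in 5C (log2 -1.73, adjusted p = 1.30e-06). It was at 49.6 ± 0.564 CPM in 3C, short of a call (log2 -0.87, adjusted p = 7.92e-05).

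Others of this list were less steady. Sparcl1 was 12.9 ± 1.53 CPM in DMSO, 109 ± 3.12 CPM in 3C and 101 ± 59.4 CPM in 5C, and its calls (log2 3.05 and 2.99, adjusted p = 0.0313 and 0.0288) were lost without either DMSO library, with adjusted p of 0.171 to 0.190, without either 3C library, with 0.0921 to 0.144, and without the filter on low counts. Bcan fell in 3C from 4.26 ± 0.173 CPM to 0.409 ± 0.0191 CPM (log2 -3.41, adjusted p = 0.000731). Its call between 5C and 3C (log2 1.81, adjusted p = 0.0330) was lost without 5C replicate 1 (log2 0.96) or either 3C library (1.86 and 1.77). That call was also lost with the 4 libraries alone and with limma on either FPKM scale. Bcan was called lower in 5C than in DMSO too (log2 -1.60, adjusted p = 0.0215). That call was lost without either DMSO library, without 5C replicate 2 or on log2(FPKM + 1). Tnr fell from 1.41 ± 0.364 CPM to 0.268 ± 0.113 CPM in 5C (log2 -2.37, adjusted p = 0.00984), where its libraries held 24 and 13 counts, near the floor. The Tnr call was lost without DMSO replicate 1 (log2 -2.10) or 5C replicate 2 (log2 -2.01). Over the 19 the median log2 fold change was 0.03 in 5C and -0.33 in 3C against DMSO.

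For receptors and partners of these proteins, all 15 were tested, with 2 called higher and 2 lower in 5C, 2 lower in 3C and 1 higher in 5C than in 3C. Itgb3, the β chain of an RGD-binding integrin that takes thrombospondin and periostin as ligands, was at 5.89 ± 1.40 CPM in DMSO, 5.31 ± 2.11 CPM in 3C and 19.9 ± 3.45 CPM in 5C (log2 1.78, adjusted p = 0.00293 against DMSO, and 1.96, adjusted p = 0.00515 against 3C). Stab1, a scavenger receptor of macrophages and sinusoidal endothelium that takes up SPARC, fell in 5C (log2 -1.68, adjusted p = 1.86e-05) and in 3C (log2 -1.13, adjusted p = 0.000220, and -0.91 without DMSO replicate 1). The toll-like receptors of biglycan fell with both cocktails. Tlr2 was called in 5C (log2 -1.12, adjusted p = 1.98e-05) and fell short of a call in 3C (log2 -0.85, adjusted p = 0.000136). Tlr4 was called in 3C (log2 -1.22, adjusted p = 1.51e-05) and fell short of a call in 5C (log2 -0.91, adjusted p = 5.61e-05). Egfr, which decorin binds, rose in 5C (log2 1.02, adjusted p = 2.29e-05), and the value was 0.93 without DMSO replicate 2. In 3C Egfr rose too, short of a call (log2 0.74, adjusted p = 0.0002). The median log2 fold change of the 15 was -0.09 in 5C and -0.25 in 3C.

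All 21 enzymes that build and sulfate chondroitin and dermatan sulfate chains were tested, and 1 was called. Csgalnact1, which starts the chondroitin chain, was called higher in 5C (3.17 ± 0.0419 CPM in DMSO, 8.18 ± 2.15 CPM in 5C, log2 1.39, adjusted p = 0.00363), and no other enzyme was called in any comparison. By adjusted p alone 2 rose and 4 fell in 5C, 6 fell in 3C, and 4 were higher in 5C than in 3C. Their median log2 fold change was -0.05 in 5C and -0.30 in 3C against DMSO.

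Among 10 processing proteases, 9 were tested. The called ones were of the ADAMTS family, which makes up most of the list and several of which cut versican. Adamts1, Adamts4, Adamts9 and Adamts15 rose in 5C with log2 values of 1.15 (adjusted p = 2.86e-06), 1.86 (adjusted p = 0.000214), 1.80 (adjusted p = 0.000126) and 2.07 (adjusted p = 0.000280). In 3C, Adamts15 rose by 2.51 (adjusted p = 0.000117) and Adamts1 by 1.03 (adjusted p = 8.18e-06), whereas Adamts5 fell by 1.10 on the log2 scale (adjusted p = 0.000123). Adamts4 was higher in 5C than in 3C, at 11.9 ± 2.52 CPM against 4.75 ± 0.595 CPM (log2 1.37, adjusted p = 0.00376). The median log2 fold change of the 9 was 0.31 in 5C and -0.03 in 3C.

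**Figure D4:**
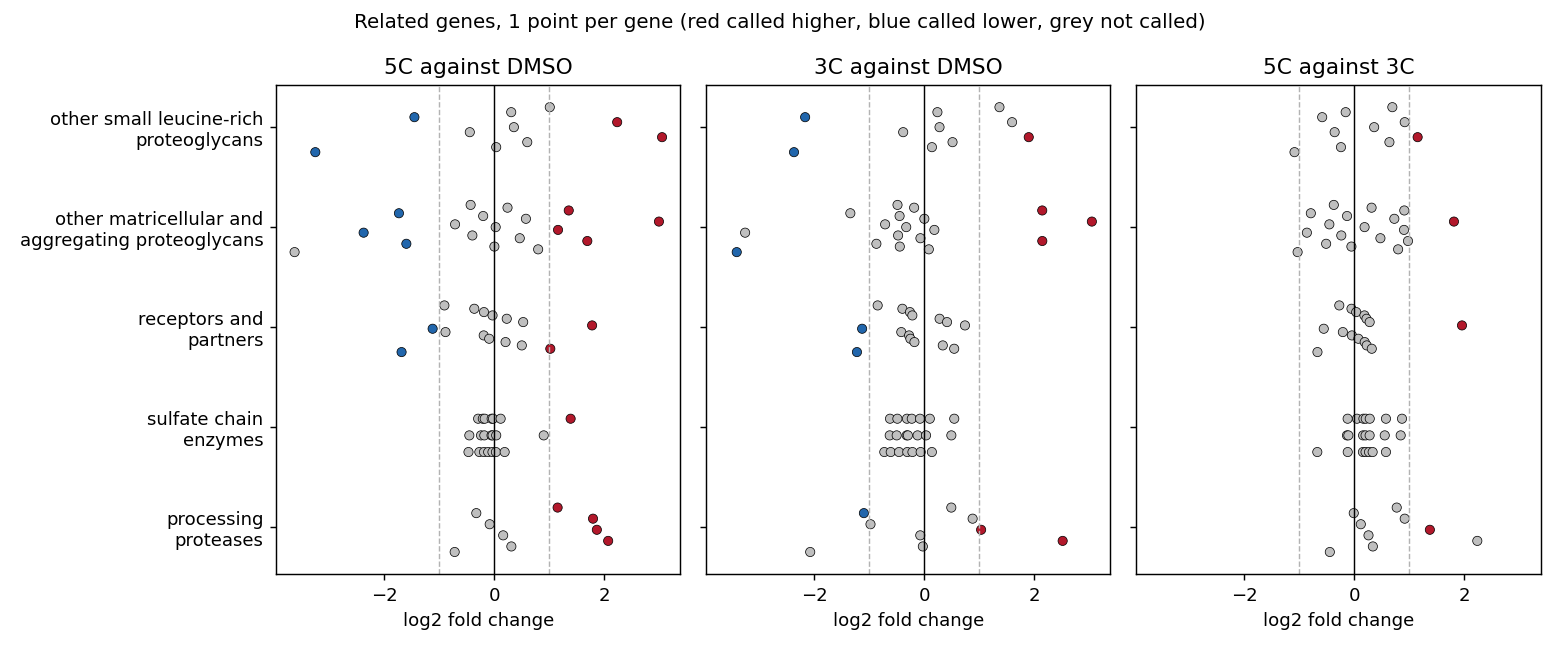
Log2 fold change of each tested gene of the 5 related lists in the 3 comparisons, 1 point per gene, spread vertically within a list for legibility. Red and blue mark genes called higher and lower, grey those not called, and dashed lines a fold change of 2. Thbs4 and Epyc are left out for scale. The sulfate chain enzymes gather near 0, and 4 of the 9 proteases lie in red in 5C against DMSO.

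Marker lists of cell types known to make these proteins moved beside them. The 8 fibroblast markers summed to 6952 and 8163 CPM in DMSO, 5529 and 5771 CPM in 3C and 9689 and 10694 CPM in 5C. The collagen genes Col1a1, Col1a2 and Col3a1 made up most of this sum, whose order was that of Sparc, and the list was split. Pdgfra (53.8, 101.5 and 149 CPM on average in DMSO, 3C and 5C) and Mfap4 (1.02, 2.86 and 9.84 CPM) stepped up in the order of Dcn, Bgn and Thbs1, whereas Col1a1, Col3a1 and Cd34 passed the adjusted p threshold as lower in 3C than in DMSO. Of the 8, 2 were called higher in 5C than in DMSO (Mfap4 and Pdgfra), 1 in 3C (Mfap4), and 2 in 5C against 3C (Mfap4 and Col1a2), where 7 of the 8 passed the adjusted p threshold in that direction. The 5 mesothelial markers summed to 947 to 1136 CPM in DMSO, 1166 to 1272 CPM in 3C and 2026 to 2107 CPM in 5C, and 4 of 5 (Upk1b, Gpm6a, Upk3b and Wt1) were called higher in 5C against both other groups. Among the hepatocyte markers, Ttr, Apoa1, Cps1 and Asgr1 also stepped up from DMSO through 3C to 5C without overlap. Alb and Fah overlapped between the cocktails, and Tat and Hnf4a were highest in 3C. The part of these cell types in the results for Sparc, Dcn, Bgn and Thbs1 was not tested.

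The 9 stellate cell markers summed to 264 to 285 CPM in DMSO, 393 to 413 CPM in 3C and 325 to 489 CPM in 5C, with 4 called higher in each cocktail against DMSO and 1 (Des) lower in 3C. The 4 smooth muscle markers were at 588 to 624 CPM in DMSO, 249 to 262 CPM in 3C and 336 to 448 CPM in 5C. That order, which is the one of Tnc, came from Acta2 and Tagln, both called lower in 3C, while Myh11 (28.3, 19.4 and 11.9 CPM on average) and Cnn1 (10.04, 3.06 and 2.89 CPM) were lowest in 5C, where Myh11 was called lower than in DMSO. Macrophage markers summed to 4349 to 4981 CPM with DMSO, 1635 to 1667 CPM with 3C and 1106 to 1165 CPM with 5C, with 6 of 7 called lower in each, and Stab1 fell with them. Postn fell in both cocktails too. Between the cocktails Postn did not pass the test (log2 -0.13), whereas 6 of 7 macrophage markers were lower in 5C by the adjusted p. Cholangiocyte markers lay at 153 to 155 CPM, 338 to 407 CPM and 331 to 353 CPM, and 3 of 5 in 5C and 4 of 5 in 3C were called higher. The 8 endothelial markers summed to 353 to 376 CPM in DMSO, 95.3 to 129.7 CPM in 3C and 146 to 223 CPM in 5C, of which Clec4g did not exceed 12 counts in any library. Lyve1 (314 CPM on average in DMSO) and Vwf carried that fall and were called lower in both cocktails, whereas Cdh5 and Pecam1 were called higher in both and Kdr and Tek in 5C, with Cdh5 at 1.16, 10.7 and 57.8 CPM on average in DMSO, 3C and 5C. No other marker stayed that low in every library, and the part of these cell types in the results was not tested.

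**Figure D5:**
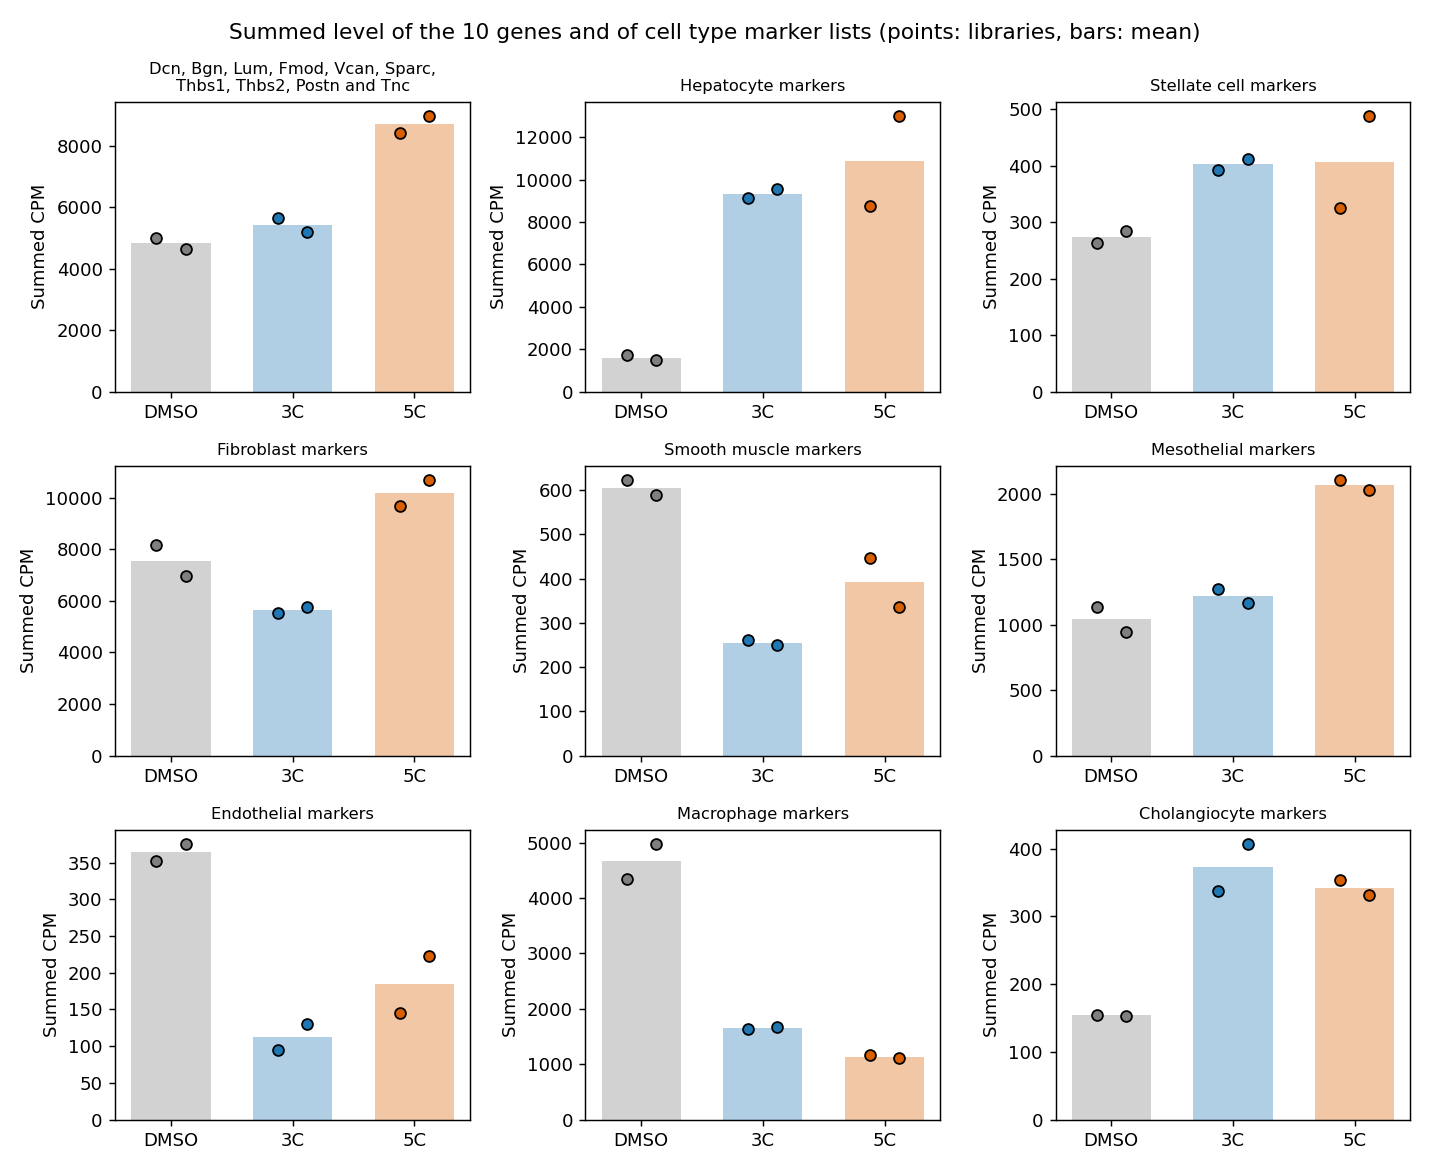
Summed CPM of the 10 genes and of the 8 marker lists by group, where points are libraries and bars are means of 2 libraries. The fibroblast list is lowest in 3C and highest in 5C, the mesothelial list is highest in 5C, and the macrophage list is highest in DMSO.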

How the data were processed

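RNA of 6 samples was sequenced as paired ends after a library kit that does not mark strand. The authors mapped reads to GRCm39, and the submitters' processing notes name featureCounts, Subread and DESeq2. Aligner settings, annotation release and use of strand are not given in the sources used here. The deposited count table holds estimated counts, whole numbers that were not normalized, and the deposited FPKM table was scaled by the authors for gene length and library total. Among low counts 4, 8 and 12 were over-frequent, so a fragment was taken to stand for 4 units and the floor of 3 fragments for 12, which is an assumption. Intervals and floors cover the spread or counting error stated only.

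Genes kept by filterByExpr were tested with edgeR 4.0.16 and its quasi-likelihood F test (R 4.3.3, robust, TMM, 1 coefficient per group, all 6 libraries, 3 residual degrees of freedom, biological coefficient of variation 18.4%) with Benjamini-Hochberg adjustment over 19135 genes. The SE is the one the F statistic implies. Replicate numbers did not pair the libraries, and replicates differed by more than sampling noise. Of the count table's identifiers, 51722 were in the GENCODE annotation of GRCm39, from which positions come. In Dcn 0.406% and in Bgn 0.271% of the transcript's 50-base words occurred in another gene, and in the other 8 genes none did.

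The members, the related lists (other small proteoglycans, other matricellular genes, receptors, chain enzymes, proteases), the marker lists and the tests were chosen with earlier results of these data known. Named beyond the 10 were up to 4 called genes per related list and comparison, by size, and the 3 nearest profiles of each member called in some comparison. On simulated data for 5C against DMSO (19135 genes, log2 fold change 2) the test found 191 to 197 of 200 changed genes and made 4 to 8 false calls. The changed genes were above a minimum level, and counts were drawn from the model the test assumes. These figures thus do not cover smaller changes or genes of very low level. Alternatives used RLE and upper-quartile factors, other count filters, DESeq2 1.42.0, the 4 libraries of a comparison alone, a replicate block, other thresholds, limma 3.58.1 on log2(FPKM + 1) and log2(FPKM + 0.1), and each library left out. Library totals without TMM and counts divided by 4 were added after seeing the data. Figures were drawn with matplotlib 3.10.9.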

Additional observations from a re-analysis of the deposited data

Results flagged for a closer look

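Sparc moved in opposite directions with the cocktails, up in 5C (log2 0.63, adjusted p = 0.000173) and down in 3C (log2 -0.44, adjusted p = 0.00187) against DMSO, and the difference of 5C from 3C was 1.07 (adjusted p = 0.000138), with both 5C libraries above both 3C libraries. The same opposition, with each difference past the test, was seen for 3 genes of the related lists. For Fstl1, a SPARC family member, the difference was 0.91 (log2 0.46 in 5C and -0.44 in 3C, adjusted p = 0.000466 for the difference). For Ccn4 it was 0.90 (log2 0.58 and -0.33, adjusted p = 0.000567), and for Ccn5 it was 0.73 (log2 0.24 and -0.49, adjusted p = 0.000472). The DMSO libraries served as control for both cocktails, and 93 of the 19135 genes tested, or 0.486%, showed such opposition. All adjusted p-values are from edgeR.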

How the results depend on the processing

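Of 510 values of single members under alternatives, 498 kept their direction and their side of the call, 7 lost the call, 1 gained it and 4 reversed. The reversals were of Vcan in 3C against DMSO (-0.08, not called), which was 0.057 with limma on log2(FPKM + 1), 0.0705 with log2(FPKM + 0.1), and -0.22 to 0.041 with 1 library left out, above 0 without DMSO replicate 2 or 3C replicate 1. Among related genes, Itgb3 in 3C against DMSO ran from -0.66 to 0.18 with 1 library left out, above 0 without DMSO replicate 1 or 3C replicate 1, and Sparcl1 in 5C against 3C from -0.85 to 0.45, above 0 without 5C replicate 1. On log2(FPKM + 1) Vcan in 5C against DMSO came to -0.998 and Tnc in 5C against 3C to 0.91, and this pseudocount lowers the size of changes in low genes. With the adjusted p alone 8 of the 10 genes passed for 5C and 8 for 3C when set against DMSO, and 6 between the cocktails. Of all genes tested, 28.7%, 24.5% and 12.7% passed in that order. With a log2 limit of 0.5 the counts were 8, 6 and 6, in place of 5, 2 and 3. The share of all genes at that limit was not computed, so these counts cannot be set against it. Leaving out 1 library gave 5 to 5, 2 to 2 and 1 to 3 called genes, the 1 without 5C replicate 2. In that fit Sparc (0.9995) and Tnc (0.99) in 5C against 3C were just under the limit. In 5C against DMSO the count stayed at 5 there only by a swap. Bgn (0.96) lost its call and Tnc (-1.07) gained one. Tnc in 5C against 3C was called in neither fit without a 3C library (1.19 and 1.52, both with an adjusted p above 0.05). A lone library left in a group is assumed to vary like the others. With the replicate number as a block the counts were 5, 2 and 3, and the correlations of replicate differences between groups, -0.0306, 0.000683 and 0.0161, gave no sign that the numbers pair libraries. With 2 libraries a group, differences of Lum, Thbs2, Tnc, Bgn and Dcn crossed the adjusted p threshold when 1 library was left out, and the cause of these changes was not tested.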
